A study of Mus musculus with 6 samples.

Results

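Mitochondria hold their own small genome, but nearly every protein that copies, transcribes and processes it is encoded in the nucleus. Coactivators of the PGC-1 family dock on transcription factors such as NRF1 and GABP, which bind the promoters of many nuclear genes for mitochondrial proteins. Inside the organelle, TFAM and TFB2M load the RNA polymerase POLRMT onto the mitochondrial promoters, POLG copies the DNA, TFB1M modifies the ribosomal RNA, and LRPPRC protects the mature messengers. Macrophages change their mitochondrial metabolism when they are activated, and the title of the series concerns that metabolism under the nuclear receptor NUR77.

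The 10 genes described here are the coactivator genes Ppargc1b and Pprc1, the factor genes Nrf1 and Gabpa, and Tfam, Tfb1m, Tfb2m, Polrmt, Polg and Lrpprc. They were taken by symbol, with no threshold on a measured value, but with earlier results of these data known. All 10 were found among the 23154 genes of the deposited table. The cells were RAW264.7, a mouse macrophage-like line, carrying the pINDUCER20b construct either for HA-NUR77 (3 libraries, called the NUR77 line) or for GFP (3 libraries, called the GFP line). Both lines received doxycycline, which switches the construct on, at 1 µg/mL for 18 hours, so the drug is common to both and no library without it was analysed here. Each replicate was 1 dish of 1 stable line, so the transgene and any other difference between the 2 lines cannot be told apart, and p-values measure only the spread between dishes. Levels are normalized reads, that is reads per 10000000 reads counted on genes, and changes are log2 fold changes of NUR77 over GFP, on log2(normalized reads + 1).

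The libraries held 11199468 to 14354453 reads on genes in the NUR77 line and 14350490 to 15929487 in the GFP line. Nr4a1, which encodes NUR77, averaged 300 ± 13.2 normalized reads in the NUR77 line and 160 ± 11 in the GFP line (SD, n = 3 each). All 10 macrophage markers examined were above the detection filter; their summed level was 28240 to 30060 normalized reads in the NUR77 line and 60870 to 62250 in the GFP line, with 3 markers that rose and 5 that fell. No read of the T cell genes Cd3e, Cd3d and Cd3g or of the B cell gene Ms4a1 was found. NUR77 replicate 1 stood apart in genes of other tissues: the muscle actin gene Acta1 was at 51.8 normalized reads there and at 7.53 to 12.5 in the other 5 libraries, and the collagen gene Col3a1 at 62.5 against 6.37 to 13.2. The summed level of 14 muscle markers was 369, 145 and 138 normalized reads in the NUR77 libraries, against 453, 393 and 427 in the GFP libraries, and that of 6 fibroblast markers 113, 41.8 and 29.4 in the NUR77 libraries, against 22.3, 20.7 and 17.6 in the GFP libraries. Their part in the results was not tested.

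Among the 10 regulators, 3 rose (Tfb1m, Pprc1 and Tfam), 2 fell (Polg and Lrpprc) and 5 did not pass the test, at a limma adjusted p under 0.05 over 11201 tested genes. That is 50% of the set, whereas 66.7% of all tested genes were called between the lines, 38.4% upward and 28.3% downward. Without NUR77 replicate 1, 2 rose and 2 fell. None of the 10 changed by 2-fold or more, whereas 13.9% of all tested genes passed the test with such a change, and their median absolute log2 fold change was 0.18, against 0.31 over all tested genes. In 7 of the 10 the 3 values of one line lay wholly outside those of the other, 3 above and 4 below; this held for 70.6% of all tested genes, 40.3% above and 30.3% below. With bulk RNA, fewer cells that express a gene and less RNA per cell cannot be told apart.

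**Figure D1:**
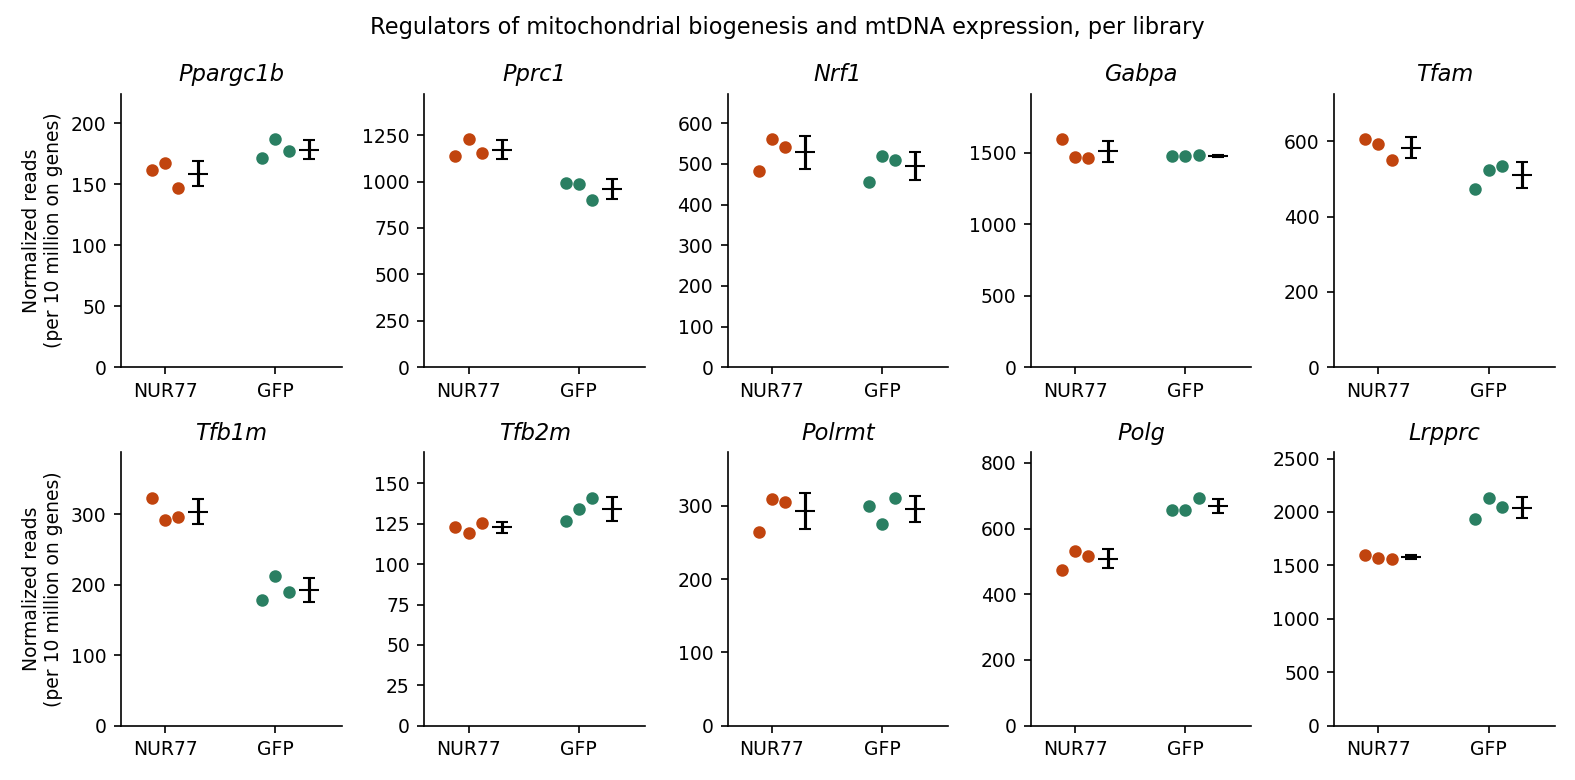
Normalized reads of each of the 10 genes (vertical axis, starting at 0) in the 3 NUR77 libraries (left) and the 3 GFP libraries (right); the black marks give the mean and SD. Tfb1m and Pprc1 are higher in every NUR77 library, Polg and Lrpprc lower, and Polrmt, Gabpa and Nrf1 overlap.

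The promoters of these genes are shown first, because 4 of them hold a short element of the ETS family of factors. GABP, whose DNA-binding subunit Gabpa encodes, is among the factors that can bind it. RefSeq promoter windows (GRCm38.p6, from 250 bases before to 50 after the annotated start) were matched by symbol for 9 of the 10 genes, 10 windows in all because Nrf1 has 2. They were searched on both strands for CCGGAAG, an ETS-family core that GABP can bind. The match occurred in Tfam, Polg, Polrmt and Gabpa itself, against 8.86% of all 32851 windows. That share is per window, not per gene, and covers genes whether or not they are expressed in these cells. Of the 4 genes with the match, Tfam rose, Polg fell, and Polrmt and Gabpa did not pass the test. The 29 bases around each match are printed on the strand of the gene, with the match in capitals (CTTCCGG is the same element read on the other strand).
Tfam, chr10:71238074-71238102, minus strand: cctgccgcggaCCGGAAGtccgggcttcc
Polg, chr7:79466294-79466322, minus strand: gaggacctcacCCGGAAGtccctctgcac
Polrmt, chr10:79746607-79746635, minus strand: ccctaagagcgCTTCCGGcagtcgcagaa
Gabpa, chr16:84835020-84835048, plus strand: gagggtaagtgCTTCCGGgtccctcagct

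Counted from the RefSeq start used for the windows, the element began 47 bases before the start of Tfam and 38 before that of Polg. It began 43 bases before that of Polrmt and 93 before that of Gabpa. The gene coordinates printed below are from GENCODE. By these, the stretches of Tfam, Polg and Gabpa lie inside the gene, after its outermost start, and only that of Polrmt lies before it. The NRF1 element was searched as GCGCA, then any base, then GCGC; 4.6% of all windows held it, and among the 9 genes only Polrmt did, with 2 overlapping copies across its start site, read here on the other strand.
Polrmt, chr10:79746565-79746594, minus strand: gcaggcgGCGCGTGCGCGTGCGCactgcgg
The element of the NUR77 receptor itself, AAAGGTCA, occurred in none of the 10 windows and in 1.51% of all windows. The E-box CACGTG occurred in none of the 10 either, and in 7.15% of all windows, and the YY1 element, AAGATG followed by GCGG, in Gabpa alone and in 0.852% of all windows. A match or its absence in these 300 bases describes the letters only, and binding was not measured.

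The members of the PGC-1 coactivator family differed in their calls. Ppargc1b (ENSMUSG00000033871, chromosome 18, 61298136 to 61400431, minus strand) encodes PGC-1beta, a coactivator of nuclear receptors and NRF1. It had 162, 167 and 147 normalized reads in the NUR77 libraries, against 171, 187 and 177 in the GFP libraries. Every NUR77 value was the lower one, but the change did not pass the test (log2 fold change -0.17, 95% interval -0.36 to 0.02, limma adjusted p = 0.11). It did pass as lower under the other library scalings, at -0.24 with TMM (adjusted p = 0.026), -0.23 with upper-quartile factors (0.032) and -0.23 with median-of-ratios factors (0.036).

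Pprc1 (ENSMUSG00000055491, chromosome 19, 46044886 to 46072915, plus strand) encodes the PGC-1-related coactivator, known as a growth-responsive partner of NRF1. It had 1136, 1229 and 1152 normalized reads in the NUR77 libraries, against 992, 987 and 901 in the GFP libraries. The lines did not overlap, and the level was 1.22-fold higher (log2 fold change 0.29 with an SE of 0.06, limma adjusted p = 3e-04). Its exons share 177 bases, or 2.82% of their length, with Ldb1 on the other strand. Ldb1 itself rose (log2 fold change 0.20) at a mean of 833 normalized reads, and whether reads were counted by strand is not stated. The ratio of Ppargc1b to Pprc1 reads, which no library scaling can alter, averaged 0.136 in the NUR77 line and 0.187 in the GFP line. All 3 NUR77 ratios lay below all 3 GFP ratios (exact two-sided permutation p = 0.1, the smallest that 3 against 3 can give).

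Ppargc1a, which encodes PGC-1alpha, the founding member of the family and a master coactivator of mitochondrial biogenesis in muscle and brown fat, is not among the 10. It had no read in any NUR77 library, against 17.4, 16.9 and 18.3 normalized reads in the GFP libraries, or 80 reads in all. A limit of 3 reads over the NUR77 libraries is 0.787 normalized reads, and the GFP mean was 22.3 times this limit. The limit covers counting error in the NUR77 libraries only, not that of the 80 GFP reads. Its mean was under the filter of 10 normalized reads, and without the filter it passed the test (limma adjusted p = 1.2e-12 over 18607 genes). Of the 3 coactivator genes, 1 was thus undetected in the NUR77 line, 1 did not pass and 1 rose.

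The DNA-binding factors Nrf1 and Gabpa did not pass the test in either direction. Nrf1 (ENSMUSG00000058440, chromosome 6, 30047988 to 30153458, plus strand) encodes nuclear respiratory factor 1. It had 483, 561 and 540 normalized reads in the NUR77 libraries, against 456, 519 and 509 in the GFP libraries. The lines overlapped, at a log2 fold change of 0.09 (95% interval -0.06 to 0.25, limma adjusted p = 0.26). Gabpa (ENSMUSG00000008976, chromosome 16, 84834925 to 84863779, plus strand) encodes the DNA-binding subunit of GABP, also called nuclear respiratory factor 2.

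Gabpa had 1596, 1472 and 1462 normalized reads in the NUR77 libraries, against 1475, 1475 and 1486 in the GFP libraries. The log2 fold change was 0.03 (95% interval -0.08 to 0.14, limma adjusted p = 0.64). Its sign turned to -0.05 under TMM, -0.03 under the other 2 scalings and -0.01 without NUR77 replicate 1, none of them past the threshold. The exons of Gabpa share 397 bases, or 6.98% of their length, with those of Atp5j on the other strand. Atp5j itself fell (log2 fold change -0.29), and the sources used here do not say whether reads were counted by strand. The Nrf1 to Gabpa ratio averaged 0.352 in the NUR77 line and 0.335 in the GFP line, with overlapping values (exact two-sided permutation p = 0.6).

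**Figure D2:**
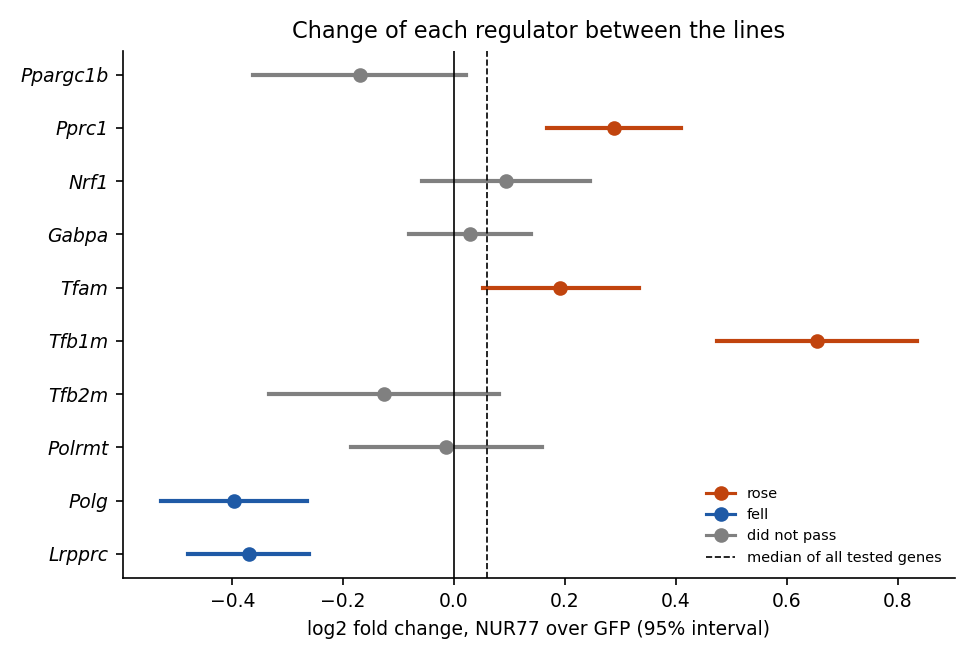
Log2 fold change of NUR77 over GFP (horizontal axis) with its 95% interval for each gene; colours give the call of the limma test and the dashed line is the median of all tested genes, 0.06. The intervals of Tfb1m, Pprc1, Polg and Lrpprc exclude both 0 and that median, while that of Tfam, from 0.05 to 0.33, excludes 0 only.

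The transcription machinery itself moved little. Tfam (ENSMUSG00000003923, chromosome 10, 71225464 to 71238280, minus strand) encodes the protein that bends and packages mitochondrial DNA. It had 606, 593 and 551 normalized reads in the NUR77 libraries, against 472, 524 and 536 in the GFP libraries. The lines did not overlap, and the level was 1.14-fold higher (log2 fold change 0.19 with an SE of 0.07, limma adjusted p = 0.017). The Tfam call was lost under TMM (0.12, adjusted p = 0.13), with median-of-ratios factors (0.14, adjusted p = 0.084) and with upper-quartile factors (0.13, adjusted p = 0.093). It was also lost without NUR77 replicate 1 (0.16, adjusted p = 0.056), NUR77 replicate 2 (0.18, adjusted p = 0.056) or GFP replicate 1 (0.14, adjusted p = 0.10).

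Polrmt (ENSMUSG00000020329, chromosome 10, 79736123 to 79746581, minus strand) encodes the mitochondrial RNA polymerase. It had 264, 309 and 306 normalized reads in the NUR77 libraries, against 299.6, 276 and 311 in the GFP libraries. The values overlapped, and the log2 fold change was -0.01 (95% interval -0.19 to 0.16, limma adjusted p = 0.89). Its sign turned without NUR77 replicate 1 (0.06) and without GFP replicate 3 (0.02), with no call in either.

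Of the 2 genes related to RNA methyltransferases, only Tfb1m passed the test. Tfb2m (ENSMUSG00000026492, chromosome 1, 179528055 to 179546267, minus strand) encodes the initiation factor that melts the mitochondrial promoter with POLRMT. It had 123, 119 and 126 normalized reads in the NUR77 libraries, against 127, 134 and 141 in the GFP libraries. Every NUR77 value was lower, but narrowly, and the change did not pass (log2 fold change -0.13, 95% interval -0.33 to 0.08, limma adjusted p = 0.27).

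Tfb1m (ENSMUSG00000036983, chromosome 17, 3519256 to 3557781, minus strand) encodes the enzyme that dimethylates the small ribosomal RNA of the mitochondrion, a step in building its ribosome. It had 323, 291 and 296 normalized reads in the NUR77 libraries, against 178, 212 and 189 in the GFP libraries. The lowest NUR77 value was well above the highest GFP value, and the 1.57-fold rise was the largest change among the 10 genes (log2 fold change 0.65, 95% interval 0.47 to 0.83, limma adjusted p = 3.6e-06). It was larger than the absolute change of 76.5% of all tested genes. The call was kept under all 16 other settings, with log2 fold changes from 0.58 to 0.72.

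The ratio of Tfb1m to Tfb2m was 2.61, 2.43 and 2.34 in the NUR77 libraries, against 1.40, 1.57 and 1.34 in the GFP libraries. The log2 ratio differed by 0.78 with no overlap (exact two-sided permutation p = 0.1, the smallest possible here). Tfb1m shares 142 exon bases, or 3.93% of its exon length, with Tiam2 on the other strand, which itself rose (log2 fold change 1.18) at a mean of 53.2 normalized reads. Of the 14 tested genes within 12 places of Tfb1m along the chromosome, 2 rose and 7 fell, with a median log2 fold change of -0.17. Over all tested genes, 38.4% rose and 28.3% fell.

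Polg (ENSMUSG00000039176, chromosome 7, 79446231 to 79466362, minus strand) encodes the catalytic subunit of DNA polymerase gamma, which replicates mitochondrial DNA. It had 475, 533 and 517 normalized reads in the NUR77 libraries, against 657, 657 and 694 in the GFP libraries. Every NUR77 library was lower, and the gene fell to 0.759 of its GFP level (log2 fold change -0.40, SE 0.06, limma adjusted p = 2.8e-05). The call was kept under all 16 other settings, with log2 fold changes from -0.47 to -0.35. Its exons share 921 bases, or 8.57% of their length, with Fanci on the other strand, which rose (log2 fold change 0.52). The Polg to Polrmt ratio averaged 1.74 in the NUR77 line and 2.26 in the GFP line without overlap (exact two-sided permutation p = 0.1).

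Lrpprc (ENSMUSG00000024120, chromosome 17, 84705247 to 84790789, minus strand) encodes a pentatricopeptide repeat protein that keeps mitochondrial messengers stable and polyadenylated. It had 1594, 1573 and 1559 normalized reads in the NUR77 libraries, against 1937, 2134 and 2044 in the GFP libraries. The lines were far apart relative to their spread, and the gene fell to 0.774 of its GFP level (log2 fold change -0.37, SE 0.05, limma adjusted p = 7.4e-06). The call was kept under all 16 other settings, from -0.44 to -0.34.

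Slirp, the RNA-binding partner of LRPPRC, fell as well. It had 388, 411 and 370 normalized reads in the NUR77 libraries, against 491, 452 and 503 in the GFP libraries (log2 fold change -0.30, limma adjusted p = 8.4e-04). The Lrpprc to Slirp ratio averaged 4.04 in the NUR77 line and 4.24 in the GFP line. These ratios overlapped (difference of the log2 ratio -0.07, exact two-sided permutation p = 0.7).

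The 10 genes differed more in level than in change. Per kilobase of annotated exon, the order in the NUR77 line ran Gabpa (265 ± 13.1 normalized reads per kb), Pprc1 (187 ± 7.92), Lrpprc (185 ± 2.04), Tfam (131 ± 6.45), Tfb1m (84.1 ± 4.79), Polrmt (62.5 ± 5.33), Nrf1 (51.4 ± 3.92), Polg (47.3 ± 2.79), Tfb2m (43.8 ± 1.18) and Ppargc1b (39.8 ± 2.59). In the GFP line it ran Gabpa (260 ± 1.12 normalized reads per kb), Lrpprc (240 ± 11.7), Pprc1 (153 ± 8.21), Tfam (115 ± 7.61), Polrmt (63.1 ± 3.87), Polg (62.3 ± 2.00), Tfb1m (53.4 ± 4.78), Nrf1 (48.1 ± 3.30), Tfb2m (47.8 ± 2.56) and Ppargc1b (44.7 ± 1.99). Neighbours whose libraries overlapped were Pprc1 with Lrpprc, Nrf1 with Polg and Polg with Tfb2m in the NUR77 line. In the GFP line they were Polrmt with Polg, Tfb1m with Nrf1, Nrf1 with Tfb2m and Tfb2m with Ppargc1b. Tfb1m stood at place 5 in the NUR77 line and 7 in the GFP line, and Lrpprc shared its place with Pprc1 in the NUR77 line but stood clearly above it in the GFP line. The length is that of all annotated exons together, so genes with long rarely used exons are understated.

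**Figure D3:**
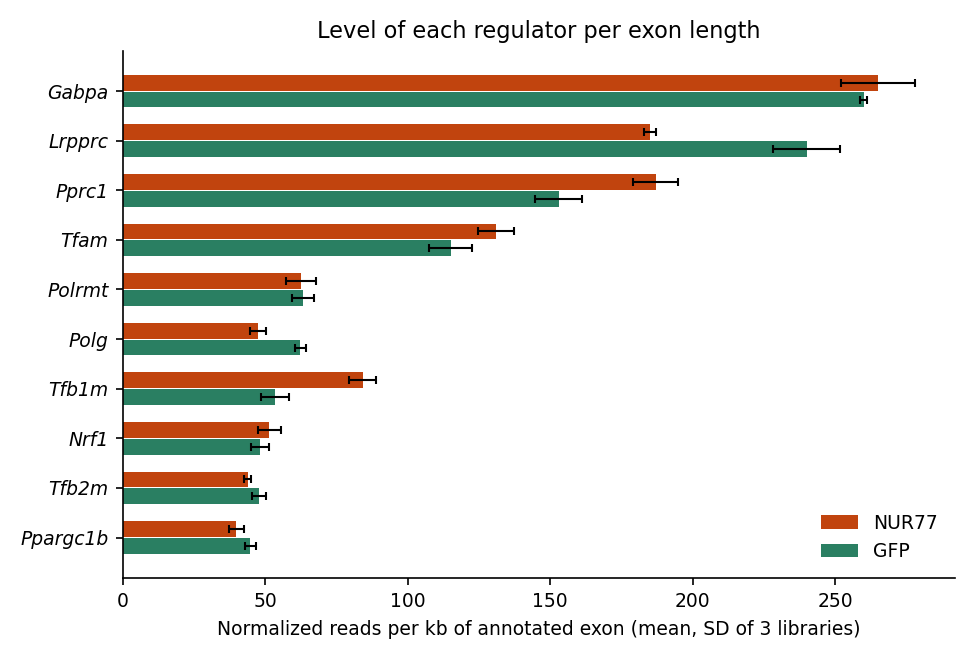
Mean level of each gene in normalized reads per kilobase of annotated exon (horizontal axis, starting at 0), with the NUR77 line above the GFP line and bars of 1 SD over 3 libraries. Gabpa leads in both lines; Lrpprc is at 185 in the NUR77 line and 240 in the GFP line, and Tfb1m at 84.1 in the NUR77 line and 53.4 in the GFP line.

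Of 29 listed upstream regulators and partners of these factors, 22 were tested; 16 rose and 2 fell, or 81.8% called against 66.7% of all tested genes, with a median log2 fold change of 0.23 against 0.06 over all tested genes. Nrip1, a corepressor that opposes PGC-1 coactivators, rose to 578 ± 36.6 normalized reads in the NUR77 line, against 306 ± 36.7 in the GFP line (log2 fold change 0.92, limma adjusted p = 4.7e-08). Foxo1, a forkhead factor, rose by 0.58 and Ppard, a lipid-sensing nuclear receptor, by 0.39. Gabpb1 and Gabpb2, which encode partner subunits of GABPA, rose by 0.33 and 0.14 (limma adjusted p = 5.8e-04 and 0.027), and Esrra, an orphan receptor that works with PGC-1 coactivators, by 0.26 (limma adjusted p = 0.010). The Gabpb1 call was kept under all 16 other settings. The Gabpb2 call was lost under all 3 other scalings (0.07 to 0.09, limma adjusted p from 0.17 to 0.27), without trend (0.083), and without NUR77 replicate 2 (0.065), NUR77 replicate 3 (0.12), GFP replicate 1 (0.092) or GFP replicate 3 (0.059). The Esrra call was lost under TMM (0.18, limma adjusted p = 0.054) and without NUR77 replicate 2 (0.18, limma adjusted p = 0.073).

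Rxra, a nuclear receptor that pairs with many others, including NUR77, fell to 133 ± 5.96 normalized reads in the NUR77 line, against 626 ± 32.1 in the GFP line (log2 fold change -2.23, limma adjusted p = 8.7e-14). Tfeb, a factor for lysosomal genes, fell by 0.44. Hcfc1, Stk11 and Prkab1 did not pass the test, at -0.03, 0.09 and 0.10. Under TMM scaling 10 genes of this list rose in place of 16, and 2 fell. With upper-quartile or median-of-ratios factors 12 rose and 2 fell. Under each of these scalings the share called in the list was no longer above that of all tested genes. Without NUR77 replicate 1, 14 rose and 3 fell.

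Of the 7 other genes of mitochondrial transcription, 6 were tested and 0 passed at the limma adjusted threshold, which 66.7% of all tested genes passed. Mterf3 and Mterf4, of the termination factor family, were at 0.18 and 0.20 (limma adjusted p = 0.057 and 0.070), and Mrpl12 was at 0.03. Mterf3 passed as higher without NUR77 replicate 1 (0.25, adjusted p = 0.012), with limma-voom (0.19, adjusted p = 0.046) and with a replicate block (0.18, adjusted p = 0.047).

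Of 26 tested genes of mitochondrial DNA replication and upkeep, 16 rose and 3 fell, or 73.1% called against 66.7% of all tested genes, with a median log2 fold change of 0.23. Rrm2b, a ribonucleotide reductase subunit that supplies nucleotides, rose to 690 ± 13.2 normalized reads in the NUR77 line, against 347 ± 4.63 in the GFP line (log2 fold change 0.99, limma adjusted p = 1.9e-10). Clpx, the chaperone part of a matrix protease, rose by 0.83 and the pyrimidine nucleotide carrier gene Slc25a33 by 0.72. Polg2, the accessory subunit that holds POLG on DNA, rose by 0.46 (limma adjusted p = 0.0091), and the helicase gene Twnk by 0.19 (limma adjusted p = 0.025). Rnaseh1, which removes primers, fell by 0.51, the thymidine kinase gene Tk2 by 0.47 and the deoxyguanosine kinase gene Dguok by 0.25. The Dguok call did not survive leaving out NUR77 replicate 2 (limma adjusted p = 0.073), NUR77 replicate 3 (0.10), GFP replicate 1 (0.11) or GFP replicate 3 (0.14), nor dropping the filter (0.064). The Polg2 call missed the threshold without NUR77 replicate 2 (0.36, limma adjusted p = 0.058). The Twnk call missed it under TMM (0.12, limma adjusted p = 0.15), with median-of-ratios factors (0.14, 0.099) and with upper-quartile factors (0.13, 0.11), and without NUR77 replicate 2 (0.097), GFP replicate 1 (0.085) or GFP replicate 2 (0.087).

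Of 42 tested genes of mitochondrial RNA processing, 16 rose and 9 fell, with a median log2 fold change of 0.10. That is 59.5% called, below the 66.7% of all tested genes. Trmt61b, among the 9 that fell (-0.77), is annotated in GENCODE as antisense, not protein-coding. It was low, at 28.5 normalized reads in the NUR77 line and 48.1 in the GFP line. Pnpt1 and Supv3l1, which encode the exonuclease and helicase that degrade mitochondrial RNA, rose by 0.78 and 0.47 (limma adjusted p = 2.7e-09 and 1.1e-05), and Mtpap, the mitochondrial poly(A) polymerase gene, by 0.30 (limma adjusted p = 7.2e-04). Ddx28 (1.00), a helicase gene of ribosome assembly, and Elac2 (0.64), which cuts tRNA ends, rose too. Mettl17 (-1.14), Nsun3 (-0.67), a tRNA methyltransferase gene, and Fastkd2 (-0.64), an RNA-binding factor gene, fell.

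Most genes for mitochondrial translation factors, and 37 of the 73 tested for ribosomal proteins, did not pass the test. Of 14 tested translation factor genes 5 rose and 0 fell, or 35.7% called against 66.7% of all tested genes. The largest rises were those of the elongation factor gene Gfm1 (log2 fold change 0.43, limma adjusted p = 2.3e-05), Mtif3 (0.28) and Tufm (0.28). The count that rose was 3 under each of the other scalings and without trend, and also without NUR77 replicate 3, GFP replicate 1 or GFP replicate 3. Of 73 tested genes for ribosomal proteins, 21 rose and 15 fell, or 49.3% called, with a median log2 fold change of 0.03. Mrpl45 rose to 1343 ± 30.4 normalized reads in the NUR77 line, against 703 ± 67.4 in the GFP line (0.94, limma adjusted p = 1.5e-09), and Mrpl36 fell by 0.62.

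**Figure D4:**
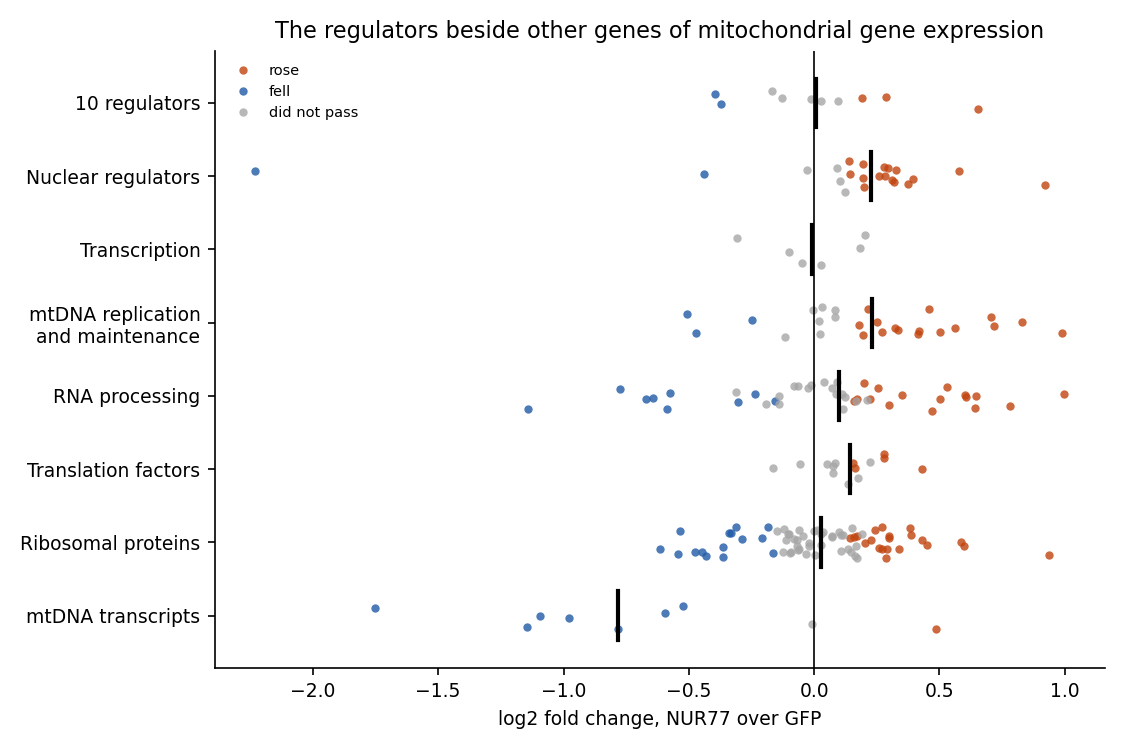
Log2 fold change of NUR77 over GFP (horizontal axis) for each tested gene of the 10 regulators and of each companion list (rows); colours give the limma call and the black bars the medians. The regulators lie within 0.66 of 0, and the transcripts of mitochondrial DNA, with a median of -0.78, lie lowest.

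The transcripts that this machinery makes and protects were lower as a group. Of 9 tested messengers of mitochondrial DNA, 7 fell and 1 rose, or 88.9% called against 66.7% of all tested genes. Genes of mitochondrial DNA took 2.25, 2.17 and 2.1% of the reads in the NUR77 libraries, against 3.11, 3.25 and 3.11% in the GFP libraries. mt-Cytb, of respiratory complex III, had 31134 ± 2670 normalized reads in the NUR77 line and 68663 ± 2520 in the GFP line (log2 fold change -1.14, limma adjusted p = 1.8e-11). mt-Co1, of complex IV, had 96999 ± 66.8 in the NUR77 line and 97482 ± 643 in the GFP line (-0.01, limma adjusted p = 0.89). mt-Nd6, the messenger of the opposite strand, rose to 1257 ± 81.2 normalized reads in the NUR77 line, against 895 ± 21.4 in the GFP line (0.49, limma adjusted p = 1.0e-06). mt-Co2, mt-Co3 and mt-Atp6 were at 9.06 normalized reads or less in every library. The nuclear genome holds near-identical copies of parts of mitochondrial DNA, so the counts of all these messengers are uncertain. The libraries were selected for poly(A) RNA, and tail length and mitochondrial DNA content were not measured.

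Among 191 tested genes of the companion lists, the 6-library profiles nearest to Tfb1m were those of Elac2, Mrpl35 and Grsf1, at Euclidean distances of 0.16, 0.18 and 0.20 on the log2 scale after centring on the GFP mean. Those nearest to Polg were Mrps26, Mrpl47 and Tfeb, at distances of 0.12, 0.20 and 0.20. With 2 lines, these profiles mainly share the size of 1 difference.

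**Figure D5:**
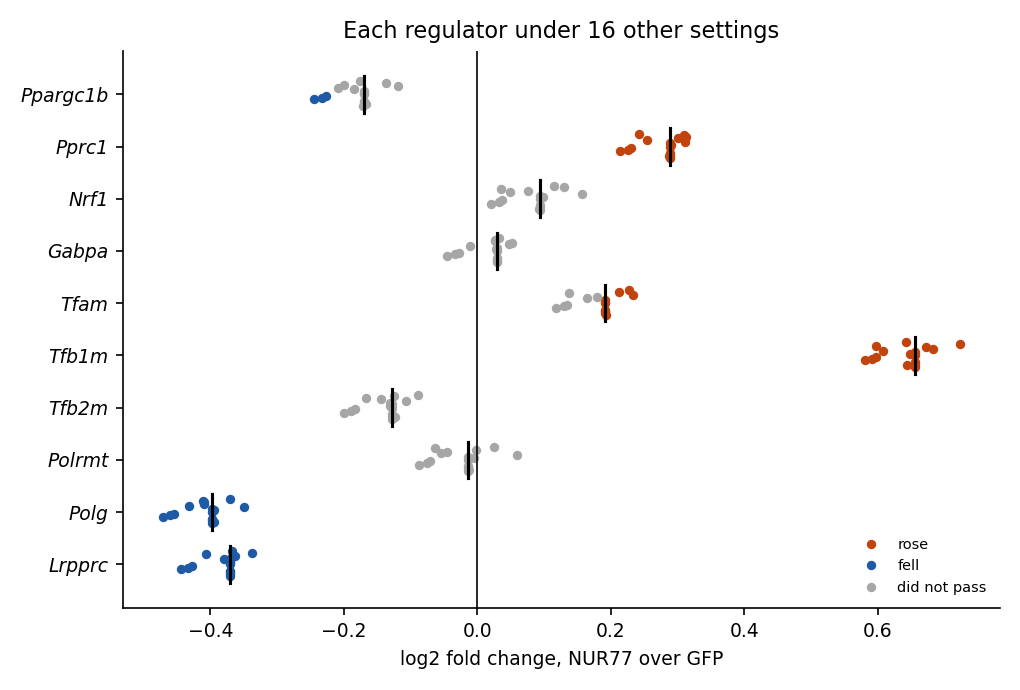
Log2 fold change of NUR77 over GFP (horizontal axis) for each gene under 16 other settings (points, coloured by the limma call) and as reported (black bar). Tfb1m, Pprc1, Polg and Lrpprc keep their call throughout, whereas Tfam and Ppargc1b change call with the scaling and Tfam also with 3 single libraries.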

How the data were processed

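Poly(A) RNA of 6 RAW264.7 cultures was sequenced, and each replicate was a separate dish. The authors deposited log2 values for 23154 Ensembl genes. TopHat2 2.1, HTSeq, DESeq2 and the mm10 build are named in the submitters' processing notes; their roles, the strand setting and the gene annotation are not stated there. The values show each to be log2 of reads per 10000000 plus 1, and 100% were whole reads within 0.1 read, so depths were recovered. Names and coordinates are from GENCODE M21 (GRCm38), promoters from RefSeq (GRCm38.p6).

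The test was limma 3.58.1 (R 4.3.3), run with trend and robust moderation on log2(normalized reads + 1) for genes averaging at least 10 normalized reads, two-sided, with Benjamini-Hochberg adjustment over all 11201 tested genes. Ratios within a library were tested by exact permutation. The members and lists were chosen with earlier results of these data known. Named genes are the 10 members, Nr4a1, Ppargc1a, Slirp, and per list up to 3 largest changes each way and up to 3 abundant genes that did not pass; Esrra, Gabpb1, Gabpb2, Polg2, Twnk, Supv3l1 and Mtpap were named for their role after their values were seen. Mpv17, Prmt1 and Mtrfr were not analysed here.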

Additional observations from a re-analysis of the deposited data

How the results depend on the processing

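The other settings, 16 in all, were pseudocounts of 0.5 and 5, no filter or one at 50, TMM, upper-quartile and median-of-ratios scaling, limma without trend, limma-voom, a replicate block, and each library left out. Across the 10 genes, 151 of 160 fold changes kept their call, 6 lost it (all Tfam) and 3 gained one (all Ppargc1b). A sign that turned without a call, as for Gabpa and Polrmt, counts as kept. The causes of the lost and gained calls were not tested. The regulators that rose numbered 3, or 2 under each other scaling, and those that fell 2, or 3. Without single libraries 2 to 3 rose and 2 fell. Over all genes 4305 rose and 3170 fell; under TMM these were 3612 and 3835. All scalings moved the median of all genes by less than 0.1, to -0.01 under TMM. Counts in the companion lists that moved by over 1.5 times were upstream regulators that rose (16, or 10 under TMM), translation factors that rose (5, or 3 under TMM, upper-quartile and median-of-ratios scaling and without trend, and 3 to 6 without single libraries), and other transcription genes that rose (0, or 1 with limma-voom or the replicate block, and 0 to 1 without single libraries). Same-numbered libraries deviated together only weakly (correlations 0.002, 0.114 and 0.045, against -0.109 to 0.073 for the other pairs). Whether the numbers mark a pairing cannot be told from these values. With the replicate block the regulators that rose numbered 3 and those that fell 2. Of 912 fold changes of the other named genes, 883 kept their call, counted in the same way, 22 lost it and 7 gained one. None of these or of the 10 genes reversed with a call. Among the other named genes, Mrpl17 passed as lower under the other scalings (-0.18 to -0.16). At this depth, 1 read is worth 0.6278 to 0.8929 normalized reads, which limits the low genes.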
